A study of Mus musculus with 2 samples.

Results

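The genes described here encode the enzymes of the citrate (TCA) cycle, the pyruvate dehydrogenase complex that feeds it, and the enzymes that bring pyruvate, glutamate and aspartate into it. They were chosen by name, 32 symbols in all, with succinate dehydrogenase left out of the list. All 32 were among the 23282 rows of the deposited count tables. RNA came from 3T3-L1 cells, a mouse embryonic fibroblast line that can be turned into fat cells in culture and that the labels call adipocytes. One culture received a control siRNA and one an siRNA against Pink1, the kinase that marks damaged mitochondria for removal. Each culture gave 1 library, so no difference below has a replicate check and no p-value can be given.

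The pyruvate carrier takes pyruvate into the mitochondrion, where the pyruvate dehydrogenase complex turns it into acetyl-CoA. Kinases shut this complex off by phosphorylating its E1 subunit, and phosphatases turn it back on. Citrate synthase joins acetyl-CoA to oxaloacetate, and the cycle then releases carbon dioxide and reduces NAD for the respiratory chain. In fat cells, citrate also leaves the mitochondrion as the carbon source for fatty acid synthesis, and pyruvate carboxylase and the transaminases refill the cycle.

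Both libraries had similar depth, at 13803174 counts for control siRNA and 14214768 for Pink1 siRNA. Pink1 itself had 511 and 351 counts, a ratio of 0.687 (counting interval 0.598 to 0.788). A second interval, widened by the excess of the spread at each level over counting error, was 0.445 to 1.05 for Pink1 and included 1. The adipocyte markers Adipoq (4337 and 4309 counts), Lpl, Pparg and Lipe had ratios of 0.994, 0.998, 1.04 and 0.941. Fabp4 and Cfd had ratios of 1.14 and 1.12, while Plin1 (275 and 167 counts) and Cd36 (461 and 621 counts) lay further from 1. Of the preadipocyte and fibroblast markers, Dlk1 (116628 and 130666 counts), Pdgfra and Col1a1 had ratios of 1.12, 1.09 and 1.15, and Pdgfrb had 917 and 920 counts. In both libraries Dlk1 had more counts than any of these adipocyte markers. Thy1 had 1289 and 1892 counts, a ratio of 1.47 with a widened interval of 1.05 to 2.06. The widened intervals of Dlk1 (1.02 to 1.23) and Col1a1 (1.01 to 1.31) also left out 1, while those of Pdgfra and Pdgfrb included it. Dlk1 and Col1a1 lay within the interquartile range of the 583 genes in their twentieth of mean level. There, 195 genes were as high as Dlk1 or higher and 156 as high as Col1a1, against 8 for Thy1 in its own twentieth. One widening factor covers the top twentieth, from 260 to 102959 CPM, so it may be too small for such highly counted genes. Whether these marker differences bear on the genes below was not tested. Of the 9 markers of macrophages, endothelium, skeletal muscle and osteoblasts, 5 (Adgre1, Cdh5, Myog, Bglap and Sp7) had 0 counts in both libraries, and Cd68 had the most, with 20 and 23. In bulk RNA, fewer cells of a type and less RNA per cell cannot be told apart.

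As a set, the 32 genes differed little between the libraries. Their median log2 ratio of Pink1 siRNA over control was 0.07, beside 0.00 over all 11660 measured genes, those with a summed count of at least 40. All 32 were measured, with 18 ratios above 1 and 14 below, beside 5957 and 5703 of all measured genes. Their share of all counts was 0.314% in the control library and 0.315% in the Pink1 siRNA library. No gene of the set reached a 2-fold difference with a 95% counting interval that left out 1, which 4.08% of all measured genes did. That background includes weakly counted genes, while all 32 have a summed count of at least 200. Among the 9490 genes with such a count, 28 passed this rule higher and 40 lower.

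With a smaller rule, a ratio of at least 1.2 either way and a counting interval without 1, 10 of the 32 genes (31.2%) were called. The background is 34.1% of all measured genes, so the set's share lies near it. The 6 called higher in the Pink1 siRNA library were Pdp1, Pdk2, Idh3a, Dld, Mpc1 and Mdh1, where the background in that direction was 16.9%. The 4 called lower were Pdk3, Suclg2, Pcx and Idh3g, with a background of 17.2%. Scaling by total counts in place of trimmed means left 3 called higher and 4 lower, since Dld, Mdh1 and Mpc1 fell short of 1.2. These intervals cover counting error only. With the widened interval in place of the counting interval, Pdp1 alone of the 32 genes was called by the smaller rule, as were 4.07% of all measured genes.

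**Figure D1:**
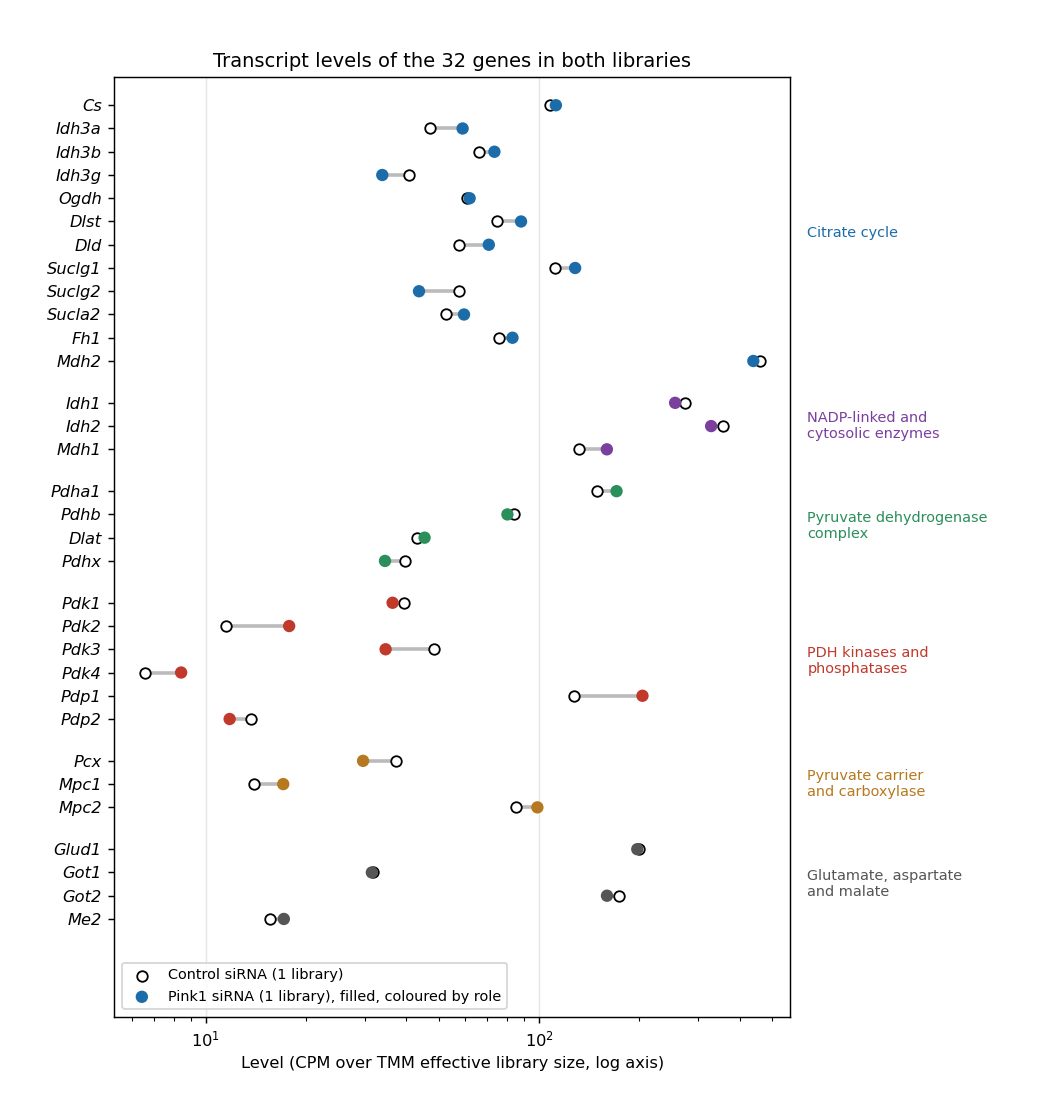
Level of each gene in CPM, counts scaled to the effective library size (log axis), in the control siRNA library (open circles) and the Pink1 siRNA library (filled circles, coloured by role), 1 library each. Pdp1 shows the widest gap among the genes above 100 CPM, at 127 and 204 CPM, and Pdk2, at 11.5 and 17.8 CPM, the widest among those below 20 CPM.

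The largest differences lay among the kinases and phosphatases that switch the pyruvate dehydrogenase complex. Pdp1, the catalytic subunit of the calcium-stimulated pyruvate dehydrogenase phosphatase, had 1781 counts in control and 2864 in the Pink1 siRNA library, or 127 and 204 CPM. Its ratio of 1.61 had a counting interval of 1.52 to 1.71 and a widened interval of 1.14 to 2.30. Among the 583 genes in its twentieth of mean level, 7 had a log2 ratio as high or higher, Pdp1 included. By RefSeq on GRCm38.p6, the assembly behind mm10, it spans chr4:11958183-11966450. No other gene with at least 40 counts overlaps it.

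The other phosphatase gene, Pdp2, had 191 and 165 counts. Its ratio of 0.864 (counting interval 0.697 to 1.07) lay on the other side of 1. At 13.6 and 11.8 CPM it was far below Pdp1 in both libraries, and per kilobase of transcript the order was the same (2.40 and 2.07 against 30.3 and 48.7 CPM per kilobase). The balance of Pdp1 to Pdp2 was 1.86 times that of control in the Pink1 siRNA library (counting interval 1.49 to 2.33).

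The 4 kinase genes did not share a direction. Pdk2, a kinase isoform found in most tissues, had 161 and 249 counts (11.5 and 17.8 CPM), a ratio of 1.55 with a counting interval of 1.26 to 1.90. Its widened interval of 0.925 to 2.63 included 1, and 23 of 583 genes of its level were as high or higher. Pdk3 had 680 and 485 counts (48.5 and 34.6 CPM), a ratio of 0.713 with a counting interval of 0.634 to 0.803. The widened interval of Pdk3 was 0.486 to 1.04, and 24 of 583 genes of its level were as low or lower. Both genes therefore lay near the edges of their level groups, one at each side.

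Pdk1, a target of hypoxia-inducible factor, had 550 and 509 counts, a ratio of 0.926 whose counting interval of 0.819 to 1.05 included 1. Pdk4, which rises in many tissues during fasting, had the fewest counts of the 32 genes, 92 and 118. Its ratio of 1.28 (counting interval 0.968 to 1.70) was not called at this depth. In both libraries Pdk4 was the lowest of the 4 kinase genes, in CPM and in CPM per kilobase of transcript. Pdk3 was the highest in the control library on both scales. In the Pink1 siRNA library Pdk1 was first in CPM (36.3 against 34.6 for Pdk3), and Pdk3 was first per kilobase (16.4, against 7.91 for Pdk2 and 7.01 for Pdk1).

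**Figure D2:**
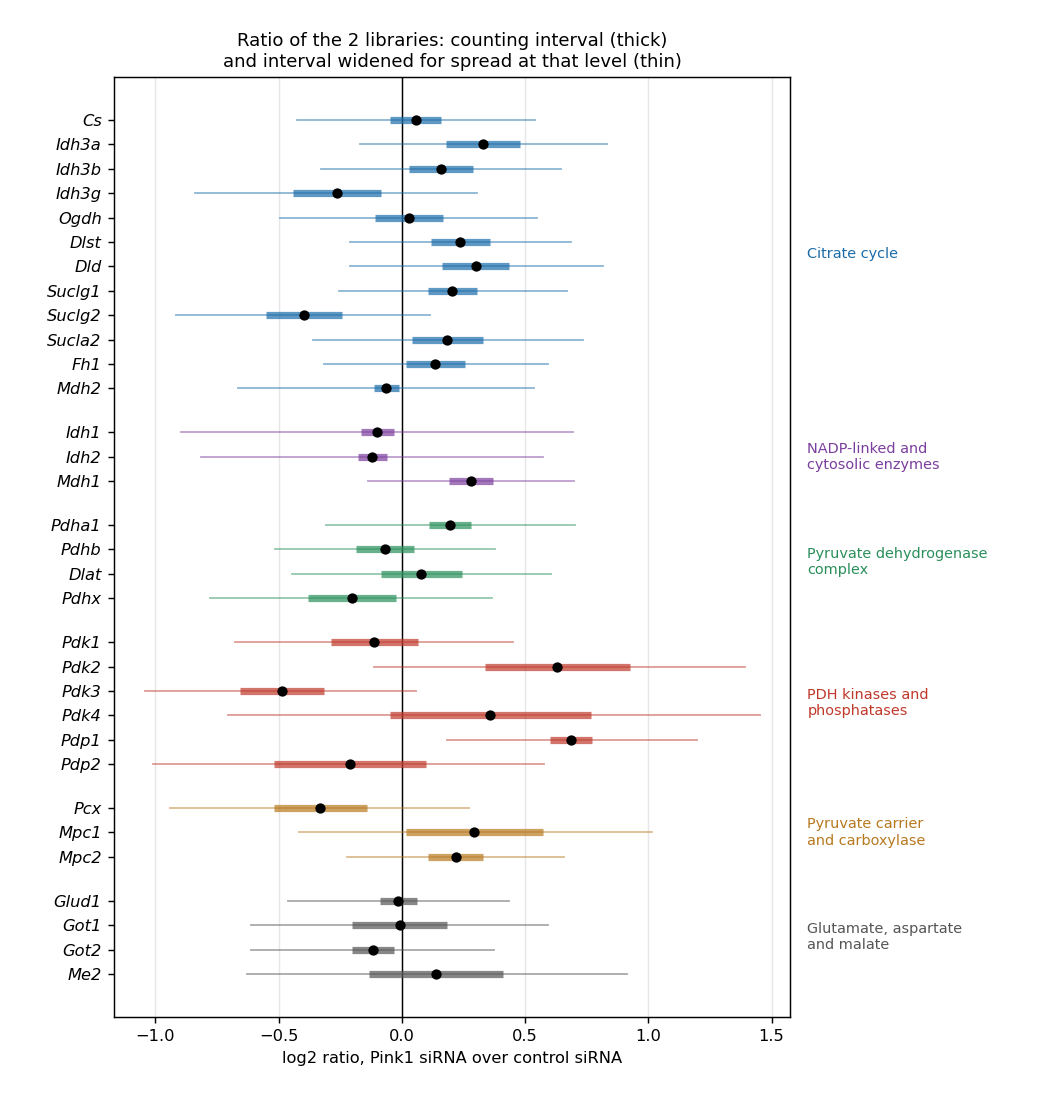
log2 ratio of Pink1 siRNA over control siRNA for each gene (points), with the 95% counting interval (thick bars) and the interval widened for the spread of genes of the same level (thin lines). Pdp1, at 0.69, is the gene whose thin line stays above 0, while Pdk2 (0.63) and Pdk3 (-0.49) lie on opposite sides with thin lines that cross 0.

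The subunits of the pyruvate dehydrogenase complex itself stayed short of the smaller rule. Pdha1, the E1 alpha subunit that the kinases phosphorylate, had 2091 and 2394 counts and a ratio of 1.14 (1.08 to 1.21). Pdhb, the E1 beta subunit, had 1181 and 1126 counts and a ratio of 0.954. Dlat, the E2 acetyltransferase, had 601 and 635 counts and a ratio of 1.06. Pdhx, which tethers E3 to the E2 core, had 556 and 483 counts and a ratio of 0.869 (0.767 to 0.983). The log2 ratios of these 4 genes ran from -0.20 to 0.20, none outside the central 90% of genes of their level. Pdha1 overlaps Map3k15 by 1128 bases (539 and 530 counts), and strand use in counting is not given, so reads of the 2 may not be separable.

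Dld encodes E3, the dihydrolipoamide dehydrogenase that this complex shares with the 2-oxoglutarate and branched-chain keto acid dehydrogenases. It had 804 and 990 counts (57.4 and 70.7 CPM) and a ratio of 1.23 (1.12 to 1.35). The widened interval of 0.865 to 1.76 included 1, and 65 of 583 genes of its level were as high or higher. Under total-count scaling its ratio fell below 1.2.

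On the route of pyruvate into the mitochondrion, both carrier genes had ratios above 1 and the carboxylase gene was called lower. Mpc1 had 195 and 239 counts, a ratio of 1.23 (1.01 to 1.49), and Mpc2 had 1191 and 1385, a ratio of 1.16 (1.08 to 1.26). The carrier works as a dimer of both proteins, and the balance of their transcripts differed by a factor of 1.05 between the libraries (0.855 to 1.30). Mpc1 overlaps 4930506C21Rik (62 and 68 counts) over 4302 bases, and its call was lost under total-count scaling and after GC content and transcript length were regressed out. Pcx, the pyruvate carboxylase that makes oxaloacetate, had 522 and 415 counts (37.3 and 29.6 CPM), a ratio of 0.795 (0.697 to 0.906). Its widened interval of 0.521 to 1.21 included 1. Lrfn4 overlaps Pcx by 3884 bases and had 234 and 264 counts.

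In the cycle itself, 9 of 12 genes had ratios above 1, with a median log2 ratio of 0.15, beside 5957 of all 11660 measured genes above 1. The counting interval lay above 1 for 7 of the 12 and below 1 for 3, beside 3060 and 2907 of all measured genes. That background goes down to a summed count of 40, where intervals are wider, so it is not matched to these genes in depth. Against genes of their own level, 4 of the 12 lay within the interquartile range and 1 outside the central 90%. Under total-count scaling the ratio of Ogdh fell to 0.989. The departures split 2 subunit families. The first is NAD-dependent isocitrate dehydrogenase, a complex of alpha, beta and gamma subunits. Idh3a, the catalytic alpha subunit, had 658 and 826 counts (47.0 and 59.0 CPM) and a ratio of 1.26 (1.13 to 1.39). Idh3b had 922 and 1029 counts, a ratio of 1.12 that fell short of the rule. Idh3g, the regulatory gamma subunit, had 569 and 474 counts (40.6 and 33.8 CPM) and a ratio of 0.833 (0.736 to 0.943). The balance of Idh3a to Idh3g was 1.51 times that of control in the Pink1 siRNA library (counting interval 1.28 to 1.77), while that of Idh3a to Idh3b was 1.12 times (0.980 to 1.29). Idh3b overlaps the nucleolar protein gene Nop56 by 5 bases (1711 and 1815 counts).

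The second family is succinyl-CoA synthetase, in which one alpha subunit pairs with either of a pair of beta subunits. Suclg1, the shared alpha subunit, had 1560 and 1798 counts and a ratio of 1.15 (1.08 to 1.23). Sucla2, the beta subunit of the ADP-forming enzyme, had 734 and 834 counts and a ratio of 1.14 (1.03 to 1.26). Suclg2, the beta subunit of the GDP-forming enzyme, had 805 and 611 counts (57.5 and 43.6 CPM), a ratio of 0.759 (0.682 to 0.844). Of the 583 genes of its level, 27 were as low or lower. The balance of Suclg2 to Sucla2 in the Pink1 siRNA library was 0.668 times that of control (0.577 to 0.774). Per kilobase of transcript, Sucla2 was above Suclg2 in both libraries, at 23.5 against 17.1 CPM per kilobase in control and 26.7 against 13.0 with Pink1 siRNA. In CPM the order was reversed in control (52.4 and 57.5), so it depends on the scale there.

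The remaining cycle genes were not called. Citrate synthase, Cs, had 1514 and 1574 counts and a ratio of 1.04 (0.968 to 1.12). Ogdh, the E1 subunit of the 2-oxoglutarate dehydrogenase complex, had 851 and 867 counts and a ratio of 1.02, while its E2 subunit gene Dlst had 1050 and 1237 and a ratio of 1.18 (1.08 to 1.28). Fumarase, Fh1, had 1061 and 1166 counts and a ratio of 1.10. Mitochondrial malate dehydrogenase, Mdh2, had the most counts of all 32 genes, 6440 and 6163, and a ratio of 0.957 (0.924 to 0.991). That interval leaves out 1, yet 158 of 583 genes of its level had a log2 ratio as low or lower.

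**Figure D3:**
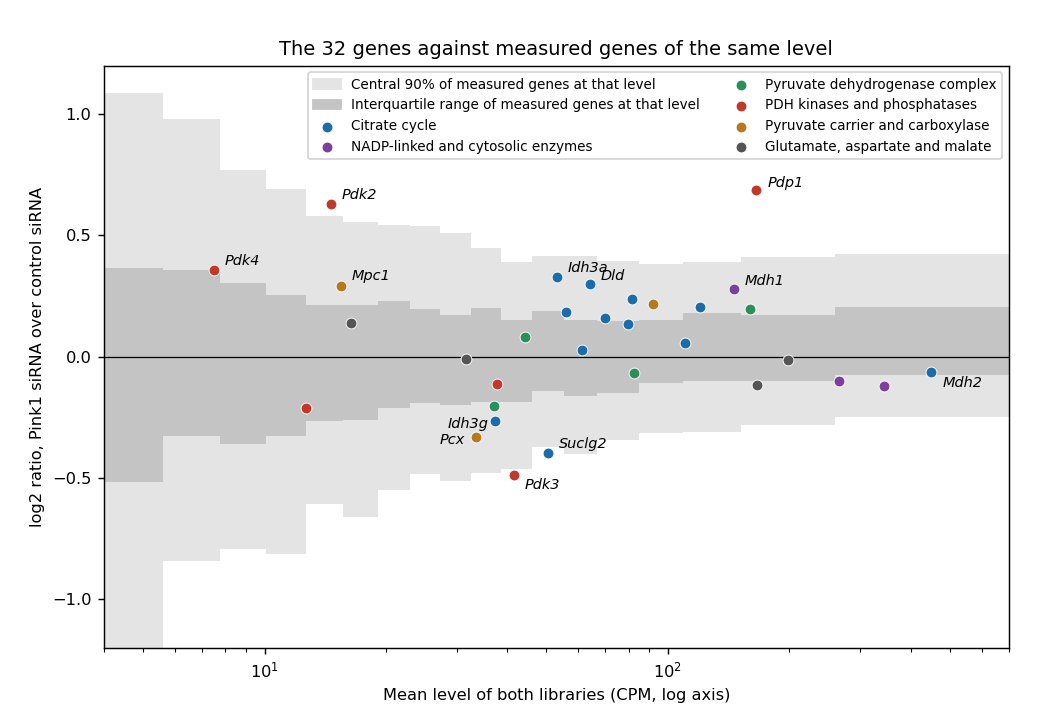
log2 ratio of Pink1 siRNA over control siRNA against the mean CPM of both libraries (log axis) for the 32 genes, coloured by role, over bands that hold the central 90% (light) and the interquartile range (dark) of measured genes in each twentieth of level. Pdp1 and Pdk2 lie above the light band and Pdk3 and Suclg2 below it, and the other 28 lie within it.

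Against genes of their own level, 12 of the 32 lay within the interquartile range and 4 outside the central 90%. Of all 11660 measured genes, 5822 and 1199 did so. Of those 4, Pdp1 and Pdk2 lay above, and Pdk3 and Suclg2 below. The kinase and phosphatase genes thus held 3 of the 4, from 6 of the 32 genes.

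The cytosolic malate dehydrogenase gene, Mdh1, which carries reducing equivalents in the malate-aspartate shuttle, had 1845 and 2239 counts (132 and 160 CPM). Its ratio of 1.21 (1.14 to 1.29) only just passed the smaller rule and fell short of it under total-count scaling and with GC content and length regressed out. The balance of Mdh1 to Mdh2 was 1.27 times that of control in the Pink1 siRNA library (1.18 to 1.36). The NADP-linked isocitrate dehydrogenases are single-protein enzymes that make NADPH, Idh1 in the cytosol and peroxisomes and Idh2 in mitochondria. Idh1 had 3845 and 3589 counts and a ratio of 0.933, and Idh2 had 5003 and 4604 and a ratio of 0.920. The balance of Idh1 to Idh2 differed by a factor of 1.01 (0.954 to 1.08). Idh2 was above Idh1 in both libraries, in CPM and per kilobase.

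Genes of enzymes that act on glutamate, aspartate and malate had the narrowest range of the 6 role groups, from -0.12 to 0.14 on the log2 scale. Glud1, glutamate dehydrogenase, had 2791 and 2763 counts and a ratio of 0.990 (0.939 to 1.04). The cytosolic aspartate transaminase gene Got1 had 444 and 441 counts, a ratio of 0.993, and the mitochondrial one, Got2, had 2431 and 2241, a ratio of 0.922 (0.870 to 0.977). Me2, the mitochondrial NAD-dependent malic enzyme, had 218 and 240 counts and a ratio of 1.10 (0.913 to 1.33). None of the 4 was called.

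**Figure D4:**
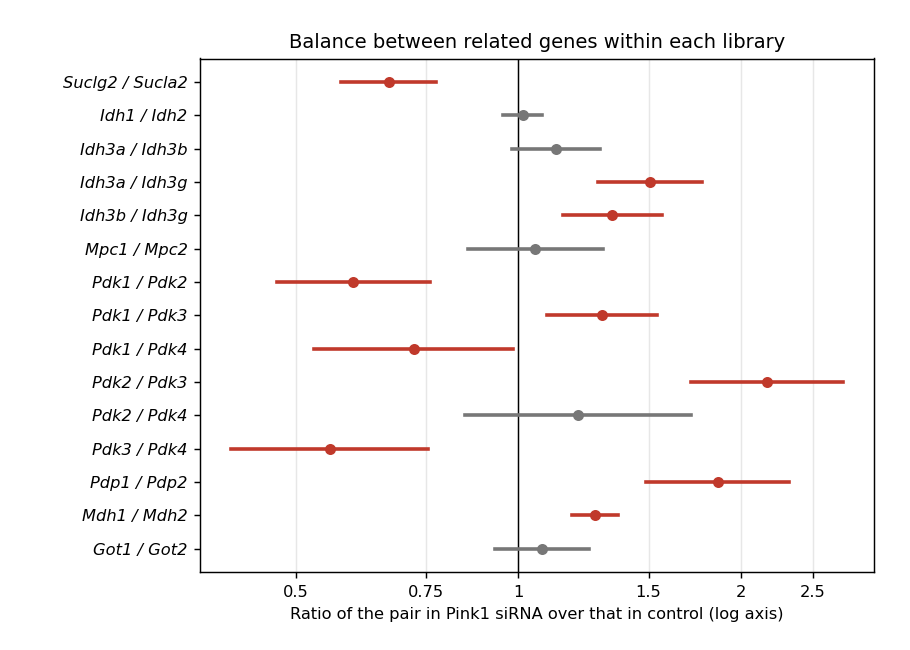
Change in the balance of related genes: the count ratio of each pair in the Pink1 siRNA library over that in the control library (points, log axis) with its exact 95% counting interval (bars), red where the interval leaves out 1. Pdk2 to Pdk3 shows the largest change, 2.17, and Idh1 to Idh2, at 1.01, sits on the line of no change.

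The balance of 2 genes within a library does not depend on the scaling between libraries. Of 12 pairs within the Pdk, Idh3, Idh1 and Idh2, succinyl-CoA synthetase beta and carrier families, 8 had a counting interval that left out 1. No share over all pairs of genes was computed. For single ratios the counting interval left out 1 in 22 of the 32 genes and in 5967 of all 11660 measured genes (51.2%), so it is common in these libraries. The share is higher among the 32, but the background includes weakly counted genes with wider intervals, so depth is not matched. Pairs for Pdp1 and Pdp2, Mdh1 and Mdh2, and Got1 and Got2 were added after the values were seen, and the first 2 of these left out 1. The widest change was Pdk2 to Pdk3, at 2.17 times control (1.71 to 2.75). Pdk3 to Pdk4 was 0.556 times control (0.408 to 0.756) and Pdk1 to Pdk2 was 0.598 times (0.471 to 0.759). Pairs within a family share members, and the intervals again cover counting error only.

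Of 48 genes from neighbouring steps, 42 were measured, with a median log2 ratio of -0.04. By the smaller rule 8 were called higher and 8 lower, beside the same background of 16.9% and 17.2%. In succinate dehydrogenase, the cycle enzyme that is also respiratory complex II, Sdha, Sdhb and Sdhc had ratios of 0.972, 0.968 and 0.939, and Sdhd was called higher (466 and 738 counts, ratio 1.58). Its assembly factor genes Sdhaf4 (893 and 621 counts, ratio 0.695) and Sdhaf1 (273 and 206, ratio 0.755) were called lower. Widened intervals left out 1 for Sdhd, Sdhaf4 and Slc25a12.

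Slc25a12 and Slc25a13 both encode mitochondrial aspartate-glutamate carriers. Slc25a12 was called higher (915 and 1329 counts, ratio 1.45) and Slc25a13 lower (373 and 300 counts, ratio 0.804). Pdpr, which encodes the regulatory subunit of the pyruvate dehydrogenase phosphatase, went from 53 to 23 counts, a ratio of 0.434 (0.254 to 0.720) opposite in direction to Pdp1. It was the only one of the 42 past the 2-fold rule, and its widened interval of 0.101 to 1.51 included 1. Pdpr overlaps 9430091E24Rik (19 and 17 counts) over 12338 bases, so reads of these genes may not be separable. Lias, which makes the lipoyl cofactor of the E2 subunits, was called lower (1300 and 1036 counts, ratio 0.797). Lipt2, an octanoyltransferase acting before Lias (23 and 45 counts, ratio 1.96), and Lipt1, a lipoyltransferase (104 and 140, ratio 1.35), were called higher, and Lipt1 overlaps Mitd1 (799 and 645 counts).

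The branched-chain keto acid dehydrogenase genes Bckdhb and Dbt, whose complex also uses Dld, were called higher with ratios of 1.31 and 1.23. The gene of its phosphatase, Ppm1k, was called lower with 0.761. The citrate carrier gene Slc25a1 (ratio 1.26) and D2hgdh, which clears D-2-hydroxyglutarate (39 and 72 counts, ratio 1.85), were also called higher. The alanine transaminase gene Gpt2 (ratio 0.789) and the monocarboxylate transporter gene Slc16a1 (697 and 493 counts, ratio 0.707) were called lower. Pkm and Ldha, which make pyruvate and convert it to lactate, had ratios of 0.967 and 1.09.

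The 32 genes lie on 16 chromosomes and differ in transcript features that the choice of members did not use. Their longest GENCODE M21 transcripts run from 961 bases (Mpc1) to 5692 bases (Pdp2), and GC content from 39.2% (Pdp1) to 57.7% (Pcx). No pair of members shares a run of 50 identical bases in these transcripts. With genes outside the set, such runs are shared by Pdk4 (197 genes), Suclg1 (35), Pdp2 (31), Mpc2 (23) and Pdhb (12). Mpc1 and Got2 share them with 3 genes each, Pdha1 and Glud1 with 2, and Suclg2 and Pdhx with 1. Only for Pdha1 does a pseudogene among them have its own row, 4930519F09Rik. How reads from shared runs were placed is not given.

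Promoters from RefSeq (GRCm38.p6), 250 bases before to 50 after the start site, were found for 29 of the 32 genes, with 39 start sites. Idh3a, Pdp1 and Me2 have no entry in the table. The E-box CACGTG, searched with 6 other motifs on both strands, was in 6 of the 39 promoters (15.4%), those of Pcx, Pdk2, Pdp2 and several start sites of Ogdh, and in 7.15% of all 32851 promoters. The motifs TNAAGGTCA (estrogen-related receptor) and GTAAACA (FOXO) were in 0 of the 39, beside 1.28% and 3.65% of all promoters. The NRF1 motif was in 2 of 39 (Dld and Sucla2, beside 4.60% of all). TGACGTCA (CREB) was in 4 of 39 (10.3%, beside 1.79% of all). These belong to Mdh2 and to Ogdh start sites whose windows overlap and hold the same site. CCGGAAG (ETS) was in 5 of 39 (12.8%, beside 8.86%) and AANATGGCG (YY1) in 3 of 39 (7.69%, beside 2.38%). The YY1 matches belong to Idh3g and to a pair of Ogdh start sites whose windows overlap and hold the same site. The E-box matches of Ogdh include a site that this pair also shares. The CREB, YY1 and E-box shares therefore each count a site more than once. A match describes letters in a window and shows no binding. Of the called genes with an entry, Pdk2, called higher, and Pcx, called lower, both hold the E-box upstream, at -126 and -248 from the start site. Their 250 upstream bases are shown 5′ to 3′ for these 2 genes of opposite direction, with the E-box in capitals, for Pdk2 from chr11:95041372-95041621 (minus strand) and for Pcx from chr19:4510222-4510471 (plus strand).
Pdk2: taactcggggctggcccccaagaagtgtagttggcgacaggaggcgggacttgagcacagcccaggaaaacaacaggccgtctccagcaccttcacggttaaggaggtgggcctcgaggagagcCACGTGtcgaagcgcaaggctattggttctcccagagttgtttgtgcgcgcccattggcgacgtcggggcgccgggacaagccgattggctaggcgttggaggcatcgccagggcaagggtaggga
Pcx: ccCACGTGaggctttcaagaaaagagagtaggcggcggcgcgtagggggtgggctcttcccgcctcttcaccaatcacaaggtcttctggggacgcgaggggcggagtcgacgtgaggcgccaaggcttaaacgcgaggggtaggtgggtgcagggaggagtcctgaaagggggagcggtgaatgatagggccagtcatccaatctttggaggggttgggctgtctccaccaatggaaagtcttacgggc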

How the data were processed

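Each library has its own deposited table of counts, with 1 row for a gene symbol. The values are whole numbers with unequal totals and so were taken as counts the authors did not normalize. The submitters' processing notes list Bowtie2, bedtools, bcl2fastq 2.20.0.422 and the mm10 build. Not given in the sources used here are the annotation, strand use and placing of multiply mapped reads. Per the labels' protocols the libraries came from a QuantSeq kit, which tags 3′ ends. Whether counts grow with transcript length is unsettled, so levels of different genes are compared in CPM and per kilobase.

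Counts were scaled by effective library sizes (TMM, edgeR 4.0.16, R 4.3.3). Ratios are Pink1 siRNA over control, with 0.5 scaled counts added for log2 values. Intervals are exact conditional binomial (Clopper-Pearson, SciPy 1.17.1, 95%). The interval of a pair's balance is the exact conditional one of the odds ratio. The widened interval divides both counts by the mean squared deviation over binomial variance in the gene's twentieth of level. Real and technical differences both enter it. Intervals that are not widened cover counting error only. No use of molecular identifiers is listed in the processing notes, so copies made in amplification may enter the counts. The scaling, ratios and counting intervals were tested on simulated counts that held counting error alone and some genes changed 2-fold. The widened intervals and those of pairs were not tested in this way.

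Every member was to be described, with those neighbouring genes past the smaller rule. The members and lists were chosen with earlier results of these data known. Alternatives were total-count, upper-quartile and DESeq2 (1.42.0) scaling, a pseudocount of 5, no filter or a summed count of 200, no interval or the widened one, and a loess fit on GC content and transcript length subtracted from the log2 ratios.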

Additional observations from a re-analysis of the deposited data

How the results depend on the processing

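Each of the 32 ratios was recomputed under 5 alternatives (3 scalings, a pseudocount of 5, and GC content and length regressed out). All 160 values stayed within the gene's own counting interval, and none of the 10 called genes changed direction. The median log2 ratio of the 32 genes ran from 0.03 (total-count scaling) to 0.09 (GC content and length regressed out). By the smaller rule, total-count scaling left 3 genes higher. The widened interval left 1 higher and 0 lower. Among all measured genes, those past the 2-fold rule numbered 197 higher and 279 lower, against 604 and 853 with no filter, 28 and 40 at a summed count of 200, and 48 and 81 with the widened interval. By the smaller rule they numbered 1971 and 2010, against 241 and 233 with the widened interval, which left 2 higher and 1 lower among the neighbouring genes. Filters change how many weakly counted genes enter, and the widened interval is wider by construction. No paired analysis was possible because each group has 1 library. With 1 library per group, the spread between cultures is unknown, and Pdk2, Pdk4, Pdp2, Mpc1 and Me2, the genes with the fewest counts, have the widest counting intervals.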
